A study of Mus musculus with 13 samples.

Results

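The 10 genes described here, which write or remove Polycomb and Trithorax histone methylation, were measured in mouse thymic T cell lymphomas and normal thymus. The 10 genes were chosen by name out of 43629 genes in the table. No measured value entered the rule, but earlier results of these data were known at the time. Ezh1, Ezh2, Eed and Suz12 encode core subunits of Polycomb repressive complex 2 (PRC2). Kmt2a, Kmt2b, Kmt2c and Kmt2d encode MLL-family H3K4 methyltransferases, Men1 encodes menin, a partner of KMT2A and KMT2B, and Kdm6b encodes an H3K27 demethylase. All 10 were detected in all 13 libraries and passed the filter on low values (10 or more normalized counts in 3 or more libraries), as did 15872 genes in all.

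The RNA came from single-cell suspensions and was sequenced as poly(A) RNA. The 5 Atm-/- lymphomas arose in mice of strain 129S6/SvEv without functional ATM, a kinase of the DNA damage response. The 5 Rag2c/c p53-/- lymphomas arose in p53-null mice that express RAG2 without its C terminus (the RAG2 core). Their background was mixed, of C57BL/6 and 129S6/SvEv. The 3 WT thymuses were from wild-type C57BL/6 mice and were re-used from another series of the same laboratory. Their title, tissue and genotype labels name wild-type thymus, but their source label reads thymic lymphoma, as for the other 10 libraries, and they were grouped by genotype and tissue. Ages are not given in the labels used here. The lymphomas carry a different number each, but the labels do not say that the 3 thymuses came from separate mice, so that p-values measure the spread between these samples, part of which may be technical. Both lymphoma groups were compared with the same 3 thymuses. Strain, transformation and origin of the library change together between lymphoma and thymus. In the Rag2c/c p53-/- group, sex, read from sex-linked genes as given below, changes with them. The parts of these cannot be told apart. Fewer cells of a type and less RNA per cell cannot be told apart in such bulk samples either.

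PRC2 places methyl groups on lysine 27 of histone H3, a mark of silent genes, through EZH2 or its paralog EZH1, which need EED and SUZ12 for activity. EZH2 prevails in dividing cells and EZH1 in resting and differentiated cells. Trithorax-group methyltransferases act in the opposite direction: KMT2A and KMT2B, with menin, methylate lysine 4 at promoters, and KMT2C and KMT2D do so mainly at enhancers, in complexes that share the WDR5, RBBP5, ASH2L and DPY30 subunits. KDM6B and KDM6A remove the H3K27 mark. In thymocytes, these enzymes set and hold the silent or active state of developmental genes, and several of them, EZH2, EED, SUZ12 and KDM6A among them, are mutated in human T cell leukemia.

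Promoter sequences were available for 8 of the 10 genes in RefSeq (GRCm38.p6), from 250 bases before to 50 bases after the gene's start, and they were searched on both strands for the letters TTTCCCGC and TTTGGCGC (E2F), CCGGAAGT (ETS), CCAAT (NF-Y) and GGGCGG (Sp1, GC box). Of 32851 mouse promoters of that length, 1.07% held TTTCCCGC, 0.514% TTTGGCGC, 3.89% CCGGAAGT, 37.4% CCAAT and 35.7% GGGCGG. Those of 4 genes are shown: Ezh1 and Ezh2 as paralogs of which Ezh1 alone passed the test in the lymphomas, Suz12 as a core subunit that did not pass, and Kmt2c as the member furthest below thymus. Capitals mark each match of these motifs. Matches of different motifs did not overlap, and 3 pairs of GC boxes in Kmt2c overlapped each other. They lie at chr11:101226414-101226713 (Ezh1, minus strand), chr6:47594981-47595280 (Ezh2, minus strand), chr11:79992856-79993155 (Suz12, plus strand) and chr5:25498734-25499033 (Kmt2c, minus strand), and are printed 5′ to 3′ along the gene.
Ezh1: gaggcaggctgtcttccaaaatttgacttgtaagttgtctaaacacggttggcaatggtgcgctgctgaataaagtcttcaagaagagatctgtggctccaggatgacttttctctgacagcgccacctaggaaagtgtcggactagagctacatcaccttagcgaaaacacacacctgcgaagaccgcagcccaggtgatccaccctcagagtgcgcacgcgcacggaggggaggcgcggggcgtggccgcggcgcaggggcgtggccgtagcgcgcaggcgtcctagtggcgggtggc
Ezh2: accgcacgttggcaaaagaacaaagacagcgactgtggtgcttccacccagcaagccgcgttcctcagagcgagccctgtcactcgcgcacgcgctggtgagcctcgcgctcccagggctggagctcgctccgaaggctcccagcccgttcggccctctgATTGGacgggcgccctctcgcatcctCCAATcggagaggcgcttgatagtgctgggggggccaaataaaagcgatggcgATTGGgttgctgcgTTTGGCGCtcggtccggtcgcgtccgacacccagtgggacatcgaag
Suz12: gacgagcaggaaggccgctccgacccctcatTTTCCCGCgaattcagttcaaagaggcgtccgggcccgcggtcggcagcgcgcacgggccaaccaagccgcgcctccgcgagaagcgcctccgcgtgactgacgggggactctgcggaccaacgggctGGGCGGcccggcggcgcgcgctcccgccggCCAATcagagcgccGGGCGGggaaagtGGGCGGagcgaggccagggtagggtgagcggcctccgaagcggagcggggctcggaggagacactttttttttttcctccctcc
Kmt2c: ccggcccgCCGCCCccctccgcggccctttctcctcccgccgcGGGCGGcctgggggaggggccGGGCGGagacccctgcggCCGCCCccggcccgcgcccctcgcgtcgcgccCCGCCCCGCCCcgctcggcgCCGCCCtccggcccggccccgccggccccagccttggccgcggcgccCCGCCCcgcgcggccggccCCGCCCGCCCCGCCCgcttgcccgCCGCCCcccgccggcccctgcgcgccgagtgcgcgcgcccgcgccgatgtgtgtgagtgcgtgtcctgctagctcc

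The Ezh1 window held none of these letters. The Ezh2 window held TTTGGCGC, starting 3 bases after the start base, and 3 CCAAT boxes, and the Suz12 window held TTTCCCGC 219 bases before it, 1 CCAAT box and 3 GC boxes. Kmt2c held 12 GC boxes, against 5 in Kmt2a and 4 in Kmt2d. The Kmt2c window also held 56 CpG dinucleotides, more than 99.8% of promoters, whose median was 7, while Ezh2 held 31, Ezh1 held 23 and Kmt2a held 36. Eed held 1 CCAAT box, and Men1, with 3 listed promoters, held 1 CCAAT box and 1 GC box in each. A match describes these letters only.

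Depth, estimated from the steps of low values, was 9.26 to 23.6 M reads (M, mega) in Atm-/- lymphomas, 6.37 to 24.7 M in Rag2c/c p53-/- lymphomas and 6.71 to 39.6 M in thymuses. Without the 3 libraries under 10 M, number 2 of each group, 6 members fell in Atm-/- lymphomas, 5 fell in Rag2c/c p53-/- lymphomas, and Ezh2 rose in Atm-/- lymphomas (log2 difference 0.52, limma adjusted p = 0.0353). Of all genes tested in these 10 libraries, 22.2% then passed as higher and 22.7% as lower in Atm-/- lymphomas, and 16.4% and 16.7% in Rag2c/c p53-/- lymphomas. Of the genes altered in the mice, Atm was at 1559 to 2274 in thymus and fell in both lymphoma groups, to 208 to 732 in Atm-/- lymphomas (-2.06, limma adjusted p = 0.0017) and to 439 to 1315 in the others (-1.16, adjusted p = 0.0441). Rag2 also fell in both, from 4199 to 5409 in thymus to 46 to 1025 in Atm-/- lymphomas (-4.04, limma adjusted p = 0.000624) and 260 to 790 in the others (-3.22, adjusted p = 0.0036). Trp53 was at 4387 to 6341 in thymus, rose to 6853 to 11318 in Atm-/- lymphomas (0.81, limma adjusted p = 0.0342), and at 2018 to 5461 did not pass in Rag2c/c p53-/- lymphomas (-0.57, adjusted p = 0.131). For Atm and Trp53, the part of the gene that the alleles remove is not given in the sources used here. For Rag2, counts of whole genes do not resolve the part that encodes the C terminus. These counts therefore do not check the genotypes. Rag1, the partner of Rag2 in V(D)J recombination, fell in both groups (-3.46 and -2.24, limma adjusted p = 5.17e-05 and 0.00147). The summed level of 6 T cell genes, of which Cd8a was the most abundant in thymus and Thy1 in both lymphoma groups, was 93344 to 151407 in thymus and 62464 to 136352 in lymphomas, and none was at 0 in any library. Among them, only Cd8a passed, as lower in Atm-/- lymphomas (-1.49, limma adjusted p = 0.00372). Cd4 did not pass, at 19831 to 30705 in thymus, 1201 to 17284 in Atm-/- and 5470 to 25455 in Rag2c/c p53-/- lymphomas. Fibroblast genes, led by Col1a2 in Atm-/- lymphomas and by Pdgfrb in the other groups, summed to 403 to 442 in thymus, 4137 to 17444 in Atm-/- and 2054 to 3905 in Rag2c/c p53-/- lymphomas, with 5 of 6 higher in both and none at 0. Myeloid genes, led by Lyz2, summed to 3551 to 3920 in thymus, 6077 to 10197 in Atm-/- and 3586 to 7428 in Rag2c/c p53-/- lymphomas, with 3 of 6 higher in Atm-/- lymphomas (Lyz2, Cd68 and Itgam), 1 higher (Cd68) in Rag2c/c p53-/- lymphomas, and S100a8 lower in both. B cell genes summed to 907 to 1170, 231 to 289 and 122 to 422 in the same order, led by Cd79a in thymus and Cd22 in lymphomas. Thymic epithelial genes summed to 725 to 1058, 189 to 609 and 287 to 1320, led by Ccl25 in thymus and Atm-/- lymphomas and by Epcam in Rag2c/c p53-/- lymphomas. Of these 6 genes, Psmb11 (0 to 1) and Foxn1 (0 to 7) were at or near 0 in lymphomas and Krt8 fell in both groups, while Krt5 fell in Rag2c/c p53-/- lymphomas and Ccl25 in Atm-/- lymphomas. Epcam did not pass in either, at 221 to 283 in thymus, 39 to 85 in Atm-/- lymphomas and 22 to 875 in Rag2c/c p53-/- lymphomas. Endothelial genes summed to 3657 to 3776, 3467 to 6419 and 2108 to 5643, with Tek and Emcn at 0 in some libraries of every group. Pecam1 made up most of these sums, with means of 3594, 4991 and 3962, and did not pass in either lymphoma group. The other endothelial genes were split: Egfl7 rose in both groups (log2 difference 2.22 and 2.56, limma adjusted p = 3.49e-05 and 2.31e-05). Cdh5 and Kdr fell in Rag2c/c p53-/- lymphomas (-2.93 and -2.55, limma adjusted p = 0.0183 and 0.0335) and did not pass in Atm-/- lymphomas. Erythroid genes, led by Hbb-bs, summed to 935 to 2131, 872 to 6141 and 775 to 4262. The part of these other cells in the levels of the 10 genes was not tested.

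Against WT thymus, no member passed the test as higher and 6 of 10 fell in Atm-/- lymphomas, and none passed as higher and 5 of 10 fell in Rag2c/c p53-/- lymphomas. The test was limma on log2(normalized count + 1), with Benjamini-Hochberg adjustment over the 15872 genes and a threshold of adjusted p under 0.05, and fold changes are on this scale. Over all tested genes, 21.0% passed as higher and 23.6% as lower in Atm-/- lymphomas, and 17.5% and 19.7% in Rag2c/c p53-/- lymphomas. At an unadjusted p under 0.05, 1 member was higher and 6 were lower in Atm-/- lymphomas (25.1% and 27.7% of all tested genes), and 0 were higher and 5 lower in Rag2c/c p53-/- lymphomas (22.4% and 24.9%). Every library of 1 group lay beyond every library of the other for 1 higher (Ezh2) and 6 lower members (Ezh1, the 4 Kmt2 genes and Men1) in Atm-/- lymphomas, against 23.4% and 27.9% of all tested genes, and for 0 higher and 5 lower members in Rag2c/c p53-/- lymphomas, against 19.7% and 24.2%. With the threshold of the study, which also asks for a log2 difference of at least 1, 1 member stayed lower in Atm-/- lymphomas (12.6% of all genes higher, 17.0% lower), whereas 3 did so in Rag2c/c p53-/- lymphomas (9.77% higher, 13.9% lower). The median log2 difference of the 10 genes was -0.61 and -0.54, while that of all tested genes was -0.02 in both comparisons. In the whole table, the difference from thymus moved with exon length, and with the length trend removed 2 members fell in each lymphoma group and Ezh2 rose in Atm-/- lymphomas. Of the 15759 tested genes of known length, 22.0% then passed as higher and 21.9% as lower in Atm-/- lymphomas, whereas 2988 genes were higher and 17.7% lower in the other group.

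**Figure D1:**
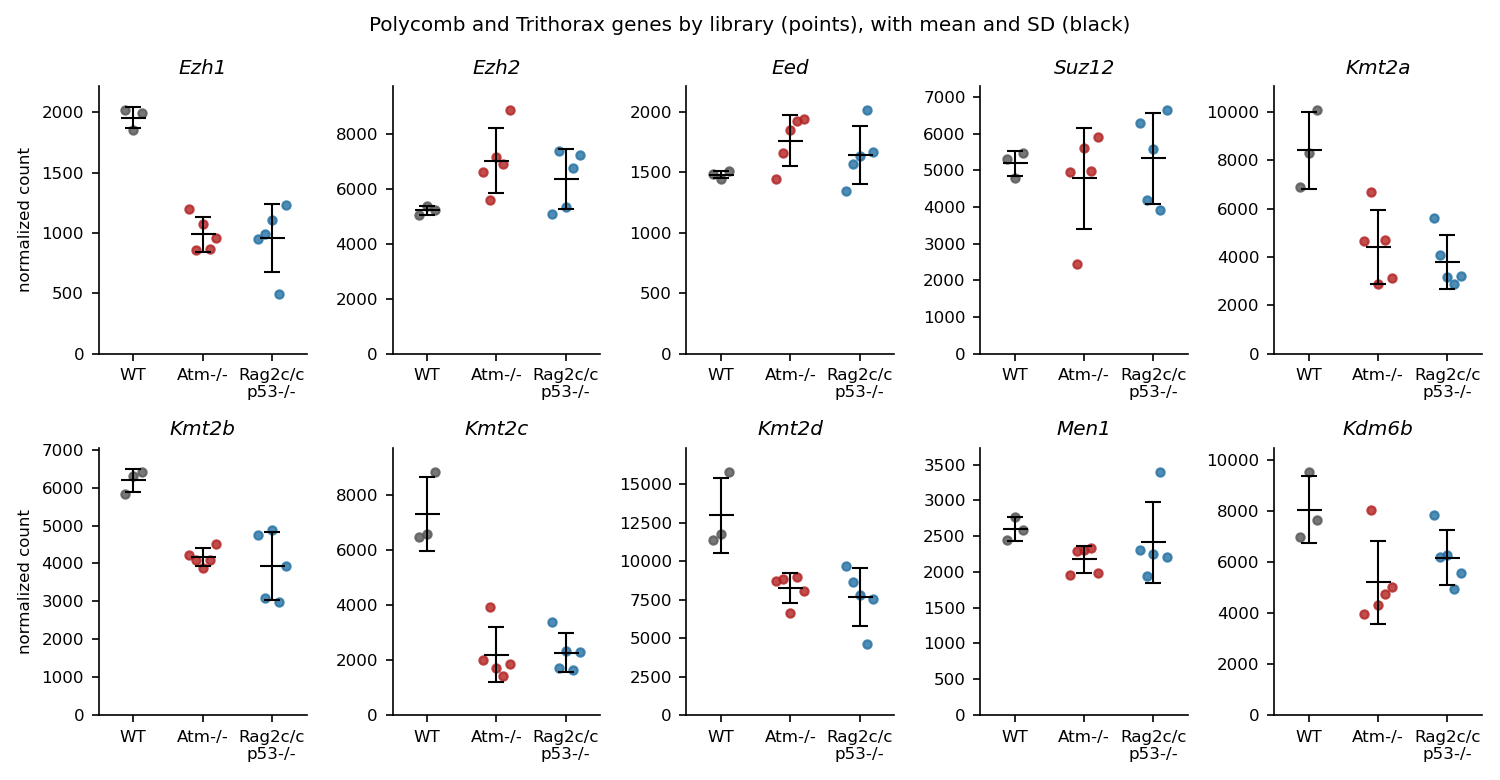
Normalized counts of the 10 genes (y axis, from 0) in the 3 WT thymuses, 5 Atm-/- lymphomas and 5 Rag2c/c p53-/- lymphomas (x axis); points are libraries, black bars the mean and SD. Ezh1 and the 4 Kmt2 genes lie lower in every lymphoma than in every thymus, while Suz12 and Eed overlap.

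Of the 2 catalytic subunits of PRC2, Ezh1 fell in both lymphoma groups and Ezh2 did not pass the test in either. Ezh1, the subunit of resting cells (ENSMUSG00000006920, GRCm38 chromosome 11 from 101191115 to 101226463, minus strand) was at 2018, 1855 and 1995 normalized counts in the 3 thymuses. It was at 1198, 856, 1073, 867 and 955 in the Atm-/- lymphomas, and at 950, 990, 1109, 494 and 1236 in the Rag2c/c p53-/- lymphomas. All 10 lymphomas lay below all 3 thymuses, and lymphoma 4 of the Rag2c/c p53-/- group lay far below the others. Ezh1 fell 1.99-fold in Atm-/- lymphomas (log2 difference -0.99 ± 0.25 SE, limma adjusted p = 0.00544) and 2.14-fold in Rag2c/c p53-/- lymphomas (-1.10 ± 0.25 SE, adjusted p = 0.00383). Without lymphoma 4, the second difference was -0.87 (limma adjusted p = 0.00152).

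Ezh2 (ENSMUSG00000029687, chromosome 6 from 47530274 to 47595341, minus strand), the catalytic subunit of dividing cells, was at 5052, 5370 and 5209 in the thymuses. It was at 6605, 5586, 7144, 6915 and 8855 in the Atm-/- lymphomas, and at 5075, 7386, 5332, 6747 and 7237 in the Rag2c/c p53-/- lymphomas. Each Atm-/- lymphoma lay above each thymus, whereas 2 of the Rag2c/c p53-/- lymphomas lay within the range of the thymuses. The log2 difference of 0.41 ± 0.17 SE in Atm-/- lymphomas did not pass (limma adjusted p = 0.0593, 95% interval 0.05 to 0.78 before adjustment), nor did that of 0.27 ± 0.17 SE in Rag2c/c p53-/- lymphomas (adjusted p = 0.223, -0.09 to 0.63). The first stands close to the threshold: it passed under 7 of 24 alternatives, among them without Atm-/- lymphoma 2 (0.49, limma adjusted p = 0.0253) and without Rag2c/c p53-/- lymphoma 1 or 2 (0.41, adjusted p = 0.0477 and 0.0479).

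Eed and Suz12, the subunits that both forms of PRC2 need, did not pass in either group. Eed (ENSMUSG00000030619, chromosome 7 from 89954656 to 89980983), which binds the H3K27 mark, was at 1446 to 1507 in thymus, 1440 to 1943 in Atm-/- lymphomas and 1341 to 2012 in Rag2c/c p53-/- lymphomas. Its log2 differences were 0.24 ± 0.15 SE (limma adjusted p = 0.197) and 0.14 ± 0.15 SE (adjusted p = 0.488), with 95% intervals from -0.08 to 0.56 and from -0.18 to 0.46. Suz12 (ENSMUSG00000017548, chromosome 11 from 79993106 to 80034123), the scaffold of the complex, was at 4788 to 5461 in thymus. It was at 4963, 2439, 5619, 4984 and 5918 in Atm-/- lymphomas and at 6306, 4181, 5587, 3913 and 6639 in Rag2c/c p53-/- lymphomas. Atm-/- lymphoma 2 stood apart from the other 4 of its group, and the groups overlapped. The log2 differences of Suz12 were -0.18 ± 0.27 SE (limma adjusted p = 0.604) and 0.01 ± 0.27 SE (adjusted p = 0.984), and the 95% intervals, from -0.75 to 0.39 and from -0.56 to 0.58, leave room for a moderate change either way.

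Per kilobase of exon, Ezh2 exceeded Ezh1 2.79-fold to 3.23-fold in the thymuses, 6.14-fold to 10.3-fold in Atm-/- lymphomas and 5.36-fold to 15.2-fold in Rag2c/c p53-/- lymphomas. The highest ratio was that of Rag2c/c p53-/- lymphoma 4, which had the lowest Ezh1 count, and no lymphoma reached down to the thymuses. The exons of the 2 genes are of like length, 7.44 kb for Ezh1 and 6.678 kb for Ezh2. The summed level of 6 genes of dividing cells, of which Mki67 was the most abundant in thymus and Top2a in both lymphoma groups, was 34401 to 39788 in thymus, 28849 to 62287 in Atm-/- lymphomas and 33348 to 49498 in Rag2c/c p53-/- lymphomas. Of these 6 genes, 4 passed as higher in Atm-/- lymphomas and 2 in Rag2c/c p53-/- lymphomas (21.0% and 17.5% of all tested genes). None of the 6 genes was at 0 in any library. Their part in the Ezh1 and Ezh2 levels was not tested.

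**Figure D2:**
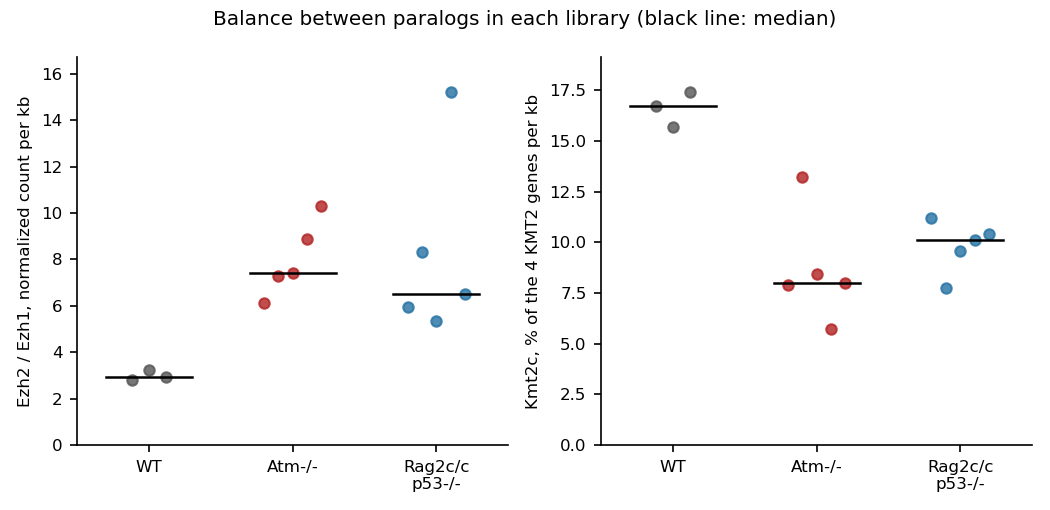
Ratio of Ezh2 to Ezh1 (left y axis, normalized counts per kb of exon) and Kmt2c as a percentage of the sum of the 4 Kmt2 genes per kb (right y axis) in each library (points), by group (x axis), with the median as a black line. The thymuses lie at 2.79 to 3.23 and at 15.7% to 17.4%, apart from all 10 lymphomas on both axes. The length trend was not removed from these values.

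Before removal of the length trend, all 4 MLL-family genes fell in both lymphoma groups, and Kmt2c fell furthest. With the trend removed, as given below, Kmt2c alone of the 4 still passed. Kmt2c (ENSMUSG00000038056, chromosome 5 from 25271798 to 25498783, minus strand), which encodes an enhancer H3K4 methyltransferase, was at 6493, 6578 and 8847 in the thymuses. It was at 2011, 3932, 1700, 1420 and 1872 in Atm-/- lymphomas, and at 3374, 1706, 2345, 1634 and 2305 in Rag2c/c p53-/- lymphomas. The highest lymphoma, at 3932, lay well below the lowest thymus. The decrease was 3.54-fold in Atm-/- lymphomas (log2 difference -1.82 ± 0.30 SE, limma adjusted p = 0.000401) and 3.29-fold in Rag2c/c p53-/- lymphomas (-1.72 ± 0.30 SE, adjusted p = 0.000836). Kmt2c held 15.7% to 17.4% of the summed level of the 4 genes per kb in thymus and 5.70% to 13.2% in the 10 lymphomas. Division by exon length does not remove the length trend, so these shares still carry it.

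Kmt2d (ENSMUSG00000048154, chromosome 15 from 98831669 to 98871204, minus strand), the paralog that shares this role, was at 11356, 11730 and 15799 in the thymuses, 6609 to 8989 in Atm-/- lymphomas and 4630 to 9660 in Rag2c/c p53-/- lymphomas. The groups did not overlap. Kmt2d fell 1.56-fold (log2 difference -0.64 ± 0.21 SE, limma adjusted p = 0.0259) and 1.72-fold (-0.78 ± 0.21 SE, adjusted p = 0.0116). The median log2 difference of all 583 tested genes of chromosome 15 was 0.39 in both lymphoma groups, on the other side of 0 from Kmt2d.

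Kmt2a (ENSMUSG00000002028, chromosome 9 from 44803355 to 44881296, minus strand), the MLL gene of leukemic translocations, was at 6875, 8284 and 10070 in the thymuses. It was at 4671, 6700, 2880, 4691 and 3112 in Atm-/- lymphomas, and at 5625, 4073, 3188, 2858 and 3190 in Rag2c/c p53-/- lymphomas. The highest Atm-/- lymphoma, number 2, came close to the lowest thymus without reaching it. Kmt2a fell 1.98-fold (log2 difference -0.98 ± 0.28 SE, limma adjusted p = 0.0119) and 2.26-fold (-1.18 ± 0.28 SE, adjusted p = 0.00531). The median log2 difference of its 50 nearest tested genes was -0.11 and 0.01.

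Kmt2b (ENSMUSG00000006307, chromosome 7 from 30568858 to 30588726, minus strand), the closest paralog of Kmt2a, was at 5843, 6315 and 6418 in the thymuses, 3890 to 4520 in Atm-/- lymphomas and 2980 to 4881 in Rag2c/c p53-/- lymphomas. The 5 Atm-/- lymphomas lay close together, with a coefficient of variation of 5.6%. Kmt2b fell 1.49-fold (log2 difference -0.57 ± 0.17 SE, limma adjusted p = 0.0141) and 1.61-fold (-0.69 ± 0.17 SE, adjusted p = 0.00638).

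Thymus 3 held the highest level of all 4 Kmt2 genes. Without it, Kmt2a (log2 difference -0.84, limma adjusted p = 0.0657), Kmt2b (-0.55, adjusted p = 0.0581) and Kmt2d (-0.49, adjusted p = 0.138) no longer passed in Atm-/- lymphomas, nor did Kmt2d in Rag2c/c p53-/- lymphomas (-0.63, adjusted p = 0.0765). Kmt2d in Atm-/- lymphomas was also lost without Atm-/- lymphoma 3 (-0.57, limma adjusted p = 0.0573). Kmt2c and Ezh1 passed in both lymphoma groups with any 1 library left out.

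Men1 (ENSMUSG00000024947, chromosome 19 from 6334979 to 6340891, plus strand) did not pass in either lymphoma group. It was at 2440, 2768 and 2583 in the thymuses, 1956 to 2333 in Atm-/- lymphomas and 1939 to 3398 in Rag2c/c p53-/- lymphomas. All 5 Atm-/- lymphomas lay below the thymuses, but the log2 difference of -0.26 ± 0.17 SE did not pass (limma adjusted p = 0.218), nor did that of -0.13 ± 0.17 SE in Rag2c/c p53-/- lymphomas (adjusted p = 0.562, 95% interval -0.48 to 0.23). The highest of all 13 libraries, 3398, was Rag2c/c p53-/- lymphoma 4.

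Kdm6b (ENSMUSG00000018476, chromosome 11 from 69398508 to 69413675, minus strand), which encodes the inducible H3K27 demethylase JMJD3, was at 6991, 9544 and 7640 in the thymuses. It was at 3961, 8027, 4318, 4738 and 5029 in Atm-/- lymphomas and at 7831, 6204, 6284, 4950 and 5554 in Rag2c/c p53-/- lymphomas. Atm-/- lymphoma 2 and Rag2c/c p53-/- lymphoma 1 lay within the thymus range, and the others lay below it. Kdm6b fell 1.58-fold in Atm-/- lymphomas (log2 difference -0.66 ± 0.22 SE, limma adjusted p = 0.0247), while the difference in Rag2c/c p53-/- lymphomas did not pass (-0.39 ± 0.22 SE, adjusted p = 0.173). The call in Atm-/- lymphomas was lost without Atm-/- lymphoma 1 (-0.58, limma adjusted p = 0.0529) or 3 (-0.61, adjusted p = 0.0524) and without thymus 2 (-0.53, adjusted p = 0.111) or 3 (-0.69, adjusted p = 0.0608).

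Several of the genes that fell are long, and in these libraries the difference from thymus moved with length. Among tested genes with under 2 kb of exon, the median log2 difference was 0.40 (Atm-/- lymphomas) and 0.26 (Rag2c/c p53-/- lymphomas), whereas among the 1268 genes of 10 kb and over it was -0.58 and -0.53. Of these long genes, 39.9% and 36.8% passed as lower. Kmt2a has 16.67 kb of exon, Kmt2c 20.291 kb and Kmt2d 19.931 kb, all above 10 kb, and Kmt2b has 9.596 kb. Within single libraries, the median of long genes minus that of short genes, each gene centred on its own mean, ran from 0.36 to 0.85 in thymus, from -0.86 to 0.15 in Atm-/- lymphomas and from -1.10 to 0.33 in Rag2c/c p53-/- lymphomas. The 3 shallowest libraries, number 2 of each group, had the lowest value of their groups.

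With the trend of each library with exon length removed, a step added after the values were seen, 2 members fell in each lymphoma group, Kmt2c and Ezh1, against 21.9% (Atm-/-) and 17.7% (Rag2c/c p53-/-) of all genes of known length. Kmt2c was then 2.09-fold lower in Atm-/- lymphomas (log2 difference -1.07 ± 0.30 SE, limma adjusted p = 0.0114) and 1.91-fold lower in Rag2c/c p53-/- lymphomas (-0.94 ± 0.30 SE, adjusted p = 0.026). Ezh1 fell as well, with log2 differences of -0.68 ± 0.22 SE (limma adjusted p = 0.0262) and -0.81 ± 0.22 SE (adjusted p = 0.0128). Ezh2 rose 1.61-fold in Atm-/- lymphomas (0.69 ± 0.19 SE, limma adjusted p = 0.0106), and did not pass in Rag2c/c p53-/- lymphomas (0.51 ± 0.19 SE, adjusted p = 0.0506). Kmt2a (-0.31 and -0.49, limma adjusted p = 0.438 and 0.239), Kmt2b (-0.15 and -0.29, adjusted p = 0.335 and 0.0899), Kmt2d (0.10 and -0.01, adjusted p = 0.722 and 0.977) and Kdm6b (-0.37 and -0.13, adjusted p = 0.254 and 0.714) did not pass in either group.

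**Figure D3:**
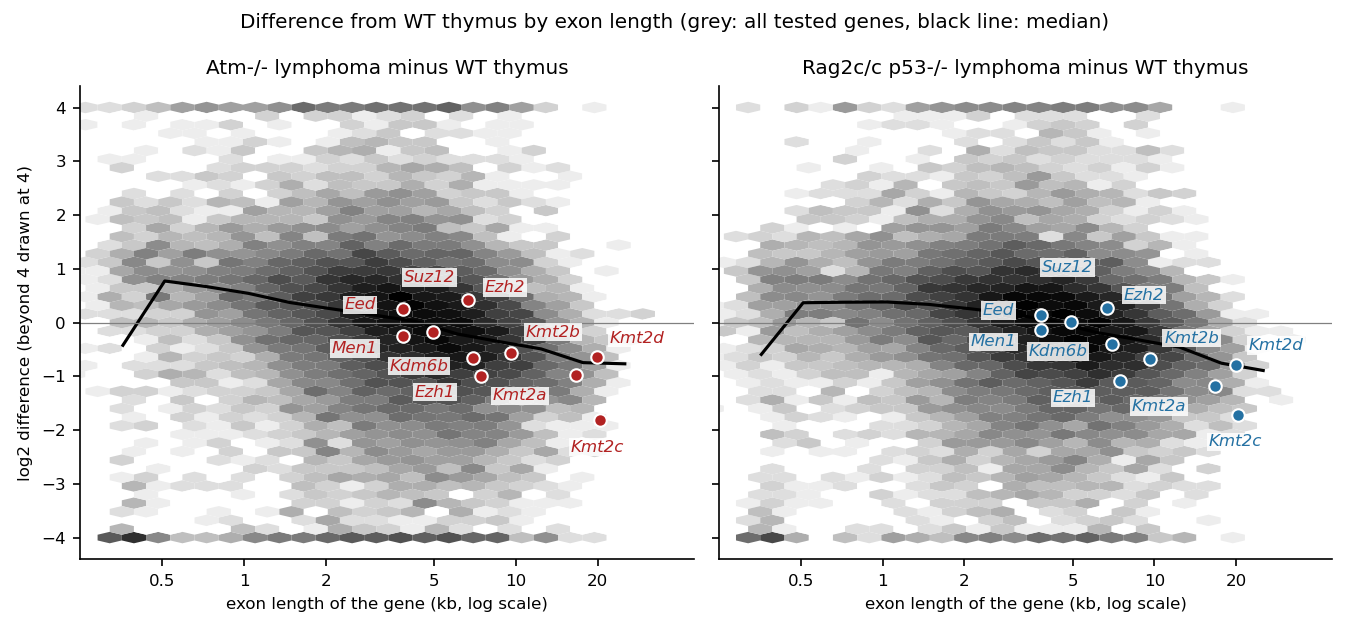
Log2 difference from WT thymus (y axis, values beyond 4 drawn at 4) against exon length in kb (x axis, log scale) for all tested genes of known length (grey, darker where more genes lie), with the running median (black line) and the 10 members (coloured points). The median falls with length, Kmt2d lies on it, and Kmt2c and Ezh1 lie below it in both lymphoma groups.

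**Figure D4:**
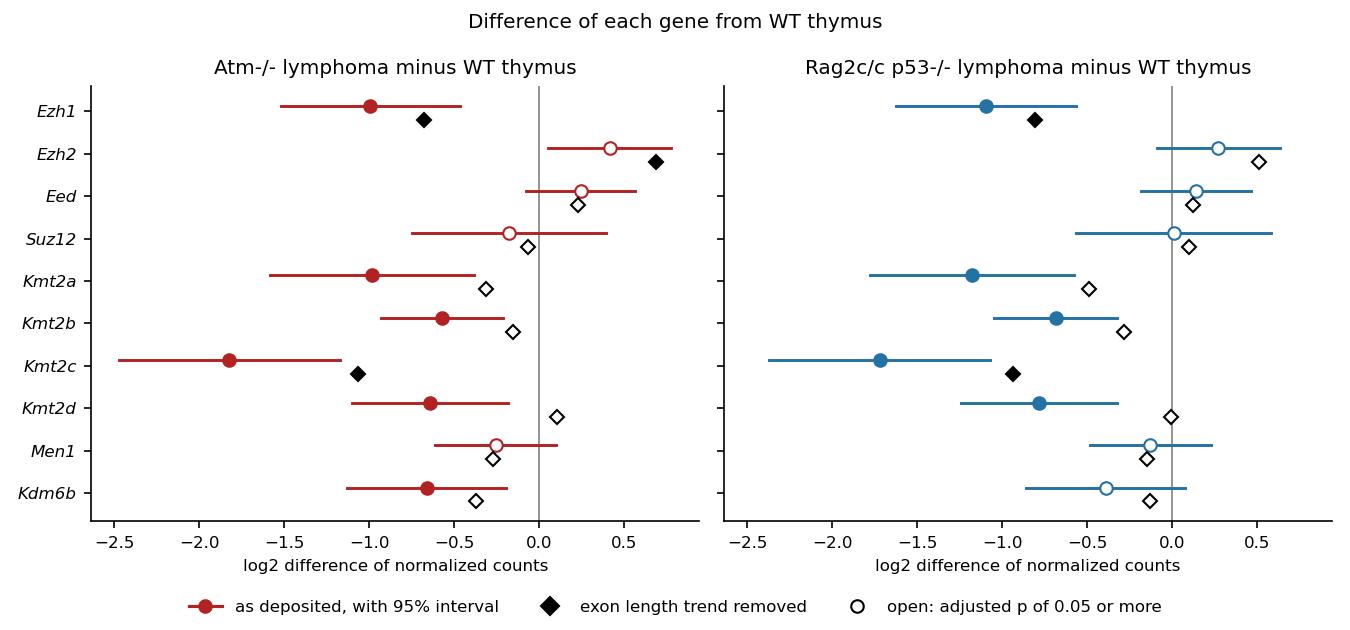
Log2 difference from WT thymus (x axis) of each member (y axis) in Atm-/- lymphomas (left) and Rag2c/c p53-/- lymphomas (right), as circles with 95% intervals, and after the exon length trend was removed, as diamonds; filled symbols passed at an adjusted p under 0.05. Kmt2c and Ezh1 are filled as circle and diamond in both panels, whereas the diamonds of Kmt2a, Kmt2b and Kmt2d are open.

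The order of levels per kilobase of exon, from which the length trend was not removed, also changed. In thymus, Kdm6b (1159 normalized counts per kb) and Suz12 (1049) led, with overlapping libraries, followed by Ezh2 (780), Men1 (677), Kmt2d (650), Kmt2b (645), Kmt2a (505), Eed (387), Kmt2c (360) and Ezh1 (263). Of these neighbours, Kdm6b and Suz12, Men1 and Kmt2d, Kmt2d and Kmt2b, and Eed and Kmt2c overlapped between libraries, and the other pairs did not. In Atm-/- lymphomas, Ezh2 (1051) and Suz12 (968) led and Kmt2c was last (108), behind Ezh1 (133). In Rag2c/c p53-/- lymphomas, Suz12 (1077) and Ezh2 (952) led and Kmt2c was last (112), behind Ezh1 (129). The leading pair and the last pair overlapped between libraries in both lymphoma groups.

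Between the lymphoma groups, limma called 0 of 10 members, against 5.13% of all genes higher and 6.48% lower in Atm-/- than in Rag2c/c p53-/- lymphomas. At an unadjusted p under 0.05 it also called 0 members, against 12.4% of all genes higher and 13.8% lower. For 0 members did the groups not overlap, which held for 3.85% of all genes on the higher and 4.48% on the lower side. The log2 differences ran from -0.27 for Kdm6b (95% interval -0.68 to 0.13) to 0.20 for Kmt2a (-0.32 to 0.72). That of Kmt2c was -0.10 (-0.66 to 0.46) and that of Ezh1 0.10 (-0.35 to 0.56). These intervals are wide, and a p above the threshold does not show that the groups are alike.

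The library with the highest or lowest value of a group differed between members, and the same count over all genes was not made. Rag2c/c p53-/- lymphoma 4 was the lowest of its group for 7 members (Ezh1, Suz12, the 4 Kmt2 genes and Kdm6b) and the highest for Eed and Men1. Rag2c/c p53-/- lymphoma 1 was the highest for 4 members (Kmt2a, Kmt2c, Kmt2d and Kdm6b) and the lowest for Ezh2 and Eed. Atm-/- lymphoma 2 was the highest of its group for Kmt2a, Kmt2c and Kdm6b and the lowest for Ezh1, Ezh2 and Suz12. Atm-/- lymphoma 5 was the highest for 4 members (Ezh2, Eed, Suz12 and Kmt2b), and Atm-/- lymphomas 1 and 3 were the lowest for 3 each. Among thymuses, number 3 was the highest for 6 members and number 1 the lowest for 7. In Atm-/- lymphomas, Kmt2c varied most (SD of log2 values 0.56) and Kmt2b least (0.08), while the median gene with a mean of 1000 or more had an SD of 0.27.

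Similarity of profile was measured as the mean absolute difference of log2 values, centred per gene, over the 13 libraries. The genes closest to Ezh2 were Arl8b (0.0909), Snd1 (0.0914) and Bard1 (0.0963), and the closest member was Eed (0.159). Those closest to Kmt2a were Tbcel (0.186), Tespa1 (0.197) and Zfc3h1 (0.201), and those closest to Kdm6b were Mcoln1 (0.123), Pld3 (0.131) and Slc39a13 (0.132). The median distance of a tested gene was 0.564 from Ezh2, 0.728 from Kmt2a and 0.608 from Kdm6b.

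The lists that follow were tested without removal of the length trend, and no list was tested as a set. Their counts stand beside the shares of all tested genes, many of which also passed. These shares were 21.0% higher and 23.6% lower in Atm-/- lymphomas, and 17.5% higher and 19.7% lower in Rag2c/c p53-/- lymphomas. Genes for other subunits of PRC2 moved in both directions. Of 9 such genes, 4 rose and 2 fell in Atm-/- lymphomas, and 3 rose and 3 fell in Rag2c/c p53-/- lymphomas, with list medians of -0.06 and 0.21. Epop, whose product brings elongin to PRC2, was at 145 to 192 in thymus, 404 to 1149 in Atm-/- and 502 to 949 in Rag2c/c p53-/- lymphomas, and rose in both (log2 difference 2.16 and 2.05, limma adjusted p = 0.000166 and 0.00035). Phf19, a Polycomb-like subunit that recruits PRC2 to CpG islands, was at 579 to 611 in thymus and rose in both, to 697 to 1809 and 1027 to 1803 (1.23 and 1.21, limma adjusted p = 0.00345 and 0.0047). Of the histone chaperones common to all forms of PRC2, Rbbp4 rose in both and Rbbp7 rose in Atm-/- lymphomas. Among subunits of particular forms, Phf1 fell in both and Jarid2 fell in Rag2c/c p53-/- lymphomas. Lcor, at 305 to 623 in thymus, fell to 34 to 168 and 41 to 235 (-2.24 and -1.99, limma adjusted p = 0.0127 and 0.0267).

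Of 22 genes of PRC1, the complex that ubiquitinates histone H2A and binds the H3K27 mark, 2 rose and 6 fell in Atm-/- lymphomas and 2 rose and 3 fell in Rag2c/c p53-/- lymphomas (list medians -0.19 and -0.15). Pcgf2, which encodes the RING partner MEL-18, was at 29 to 49 in the thymuses, 276 to 932 in Atm-/- lymphomas and 352 to 1030 in Rag2c/c p53-/- lymphomas. Every lymphoma thus exceeded every thymus, and the log2 differences of 3.95 and 3.87 (limma adjusted p = 2.6e-05 and 4.92e-05) were the highest among the Polycomb and Trithorax complex genes examined here. Its paralog Bmi1, named after its values were seen, did not pass (0.45 and 0.23, limma adjusted p = 0.204 and 0.538). Yaf2, a subunit of variant PRC1, rose (1.01 and 1.12, limma adjusted p = 0.000453 and 0.000328), and Phc3, a polyhomeotic subunit, fell (-1.28 and -1.54, limma adjusted p = 0.00274 and 0.00108). Pcgf5 and Rnf2, the latter a catalytic subunit named after its values were seen, fell in both. Cbx7, a reader of the H3K27 mark, was at 1906 to 2164 in thymus, 320 to 934 in Atm-/- and 702 to 2688 in Rag2c/c p53-/- lymphomas. It fell in Atm-/- lymphomas (-1.68, limma adjusted p = 0.0046) and was lower there than in Rag2c/c p53-/- lymphomas (-1.33, adjusted p = 0.0264). Of the H2A deubiquitinase genes, 3 of 4 were tested, and Asxl2 fell in Rag2c/c p53-/- lymphomas (-0.94, limma adjusted p = 0.0224).

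Genes for other subunits of the MLL-family and SET1 complexes moved in both directions. Of 14 subunit genes, 4 rose and 2 fell in each lymphoma group, with list medians of -0.02 and 0.01. Dpy30, at 1026 to 1082 in thymus, rose to 1984 to 2797 and 1277 to 4441 (log2 difference 1.15 and 0.92, limma adjusted p = 0.00853 and 0.0309). Psip1, which encodes the chromatin tether LEDGF of KMT2A and menin, rose (0.60 and 0.77, limma adjusted p = 0.00456 and 0.00119). Setd1b, a methyltransferase of the related SET1 complexes, fell (-1.03 and -0.86, limma adjusted p = 0.00442 and 0.0152). The remaining genes that passed, named after their values were seen, were Wdr5 and Ash2l, which rose, and Hcfc2, which fell, in both groups.

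Among 7 demethylase genes beside Kdm6b, none rose and 4 fell in each lymphoma group (list medians -0.86 and -0.86). Kdm6a, the X-linked H3K27 demethylase UTX, was at 3557 to 4002 in thymus, 797 to 2729 in Atm-/- lymphomas and 392 to 1695 in Rag2c/c p53-/- lymphomas, and fell in both (log2 difference -1.33 and -2.05, limma adjusted p = 0.0273 and 0.00332). Kdm6a and Kdm5c escape X inactivation in mice, so sex was read from Xist and the Y-linked Ddx3y. The 3 thymuses (Xist 26404 to 30159) and 3 Atm-/- lymphomas (Xist 7306 to 14060) had no Ddx3y count, whereas 2 Atm-/- and all 5 Rag2c/c p53-/- lymphomas had Ddx3y at 263 to 2379 and Xist at 3 or less. Kdm6a was at 797 to 2729 in the 3 Atm-/- lymphomas without Ddx3y and at 1138 to 1531 in the 2 with it, all below the thymuses. Sex and lymphoma cannot be told apart in the Rag2c/c p53-/- group. Kdm5b, an H3K4 demethylase, was at 4411 to 5002 in thymus and 85 to 3021 in Atm-/- lymphomas, where it fell (-2.87, limma adjusted p = 0.0106). In Rag2c/c p53-/- lymphomas it also lay below every thymus, at 763 to 1662, but did not pass (-1.98, limma adjusted p = 0.0649). Kdm5a fell in both (-1.0 and -0.86, limma adjusted p = 0.00246 and 0.00767), as did Kdm2a, and Kdm5c fell in Rag2c/c p53-/- lymphomas (-0.87, limma adjusted p = 0.00442).

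Of 12 further Trithorax-group genes, 2 rose and 5 fell in Atm-/- lymphomas and 0 rose and 5 fell in Rag2c/c p53-/- lymphomas (list medians -0.35 and -0.32). Smarca2, an ATPase of the BAF remodeller, fell (log2 difference -1.94 and -1.27, limma adjusted p = 0.000236 and 0.00518), as did the H3K36 methyltransferase gene Ash1l (-1.35 and -1.50, limma adjusted p = 0.00242 and 0.00159), Arid1b (-1.07 and -1.0, adjusted p = 0.00192 and 0.00399) and Nsd1 (-0.78 and -1.07, adjusted p = 0.00701 and 0.00127). Setd2 fell in both and Smarcb1 rose in Atm-/- lymphomas, both named after their values were seen. Chd8, named after its values were seen, was at 7553 to 8248 in thymus and rose to 13635 to 18595 in Atm-/- lymphomas (1.01, limma adjusted p = 0.00545). It also passed as higher there than in Rag2c/c p53-/- lymphomas (1.03, limma adjusted p = 0.00833), whose range of 4857 to 14091 overlapped. Of 7 genes for MLL fusion partners and elongation factors, 3 fell in Atm-/- lymphomas, Mllt3 (-1.31, limma adjusted p = 0.000559), Aff1 (-1.22, adjusted p = 0.00845) and Mllt10 (-0.56, adjusted p = 0.037), and 1, Mllt1, rose in Rag2c/c p53-/- lymphomas (0.39, adjusted p = 0.0305).

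A list of 10 textbook targets of PRC2 and MLL-menin was examined as well, and 8 were tested. Of these, 3 rose and 3 fell in Atm-/- lymphomas, and 4 rose and 3 fell in Rag2c/c p53-/- lymphomas. Hoxa7, a homeobox gene under both systems, was at 265 to 335 in thymus, 0 to 3 in Atm-/- and 1 to 19 in Rag2c/c p53-/- lymphomas, and Hoxa5 was at 45 to 94 in thymus and 0 to 3 in all lymphomas, and both fell in both groups (limma adjusted p of 8.78e-06 and 6.47e-05 for Hoxa7, and of 3.92e-05 and 5.72e-05 for Hoxa5). Cdkn2a, the Ink4a-Arf locus that PRC2 silences in many cell types, was at 3 to 4 in thymus, 213 to 3808 in Atm-/- and 3759 to 6197 in Rag2c/c p53-/- lymphomas, and rose in both (limma adjusted p = 9.62e-06 and 1.16e-06). Since 1 read was worth 0.5 to 3.38 normalized counts, no fold is given against values so near 0. Cdkn1b, a cell cycle inhibitor and a target of MLL-menin, was at 5810 to 8173 in thymus and fell to 1445 to 2569 and 1819 to 3158 (log2 difference -1.88 and -1.36, limma adjusted p = 4.45e-05 and 0.000633). Cdkn1a, a p53 target, rose in both (2.18 and 2.03, limma adjusted p = 0.000685 and 0.00148), and Cdkn2c rose in both. Cdkn2b, also near 0 in thymus at 3 to 12, was at 34 to 76 in Rag2c/c p53-/- lymphomas, where it rose (limma adjusted p = 0.00158).

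**Figure D5:**
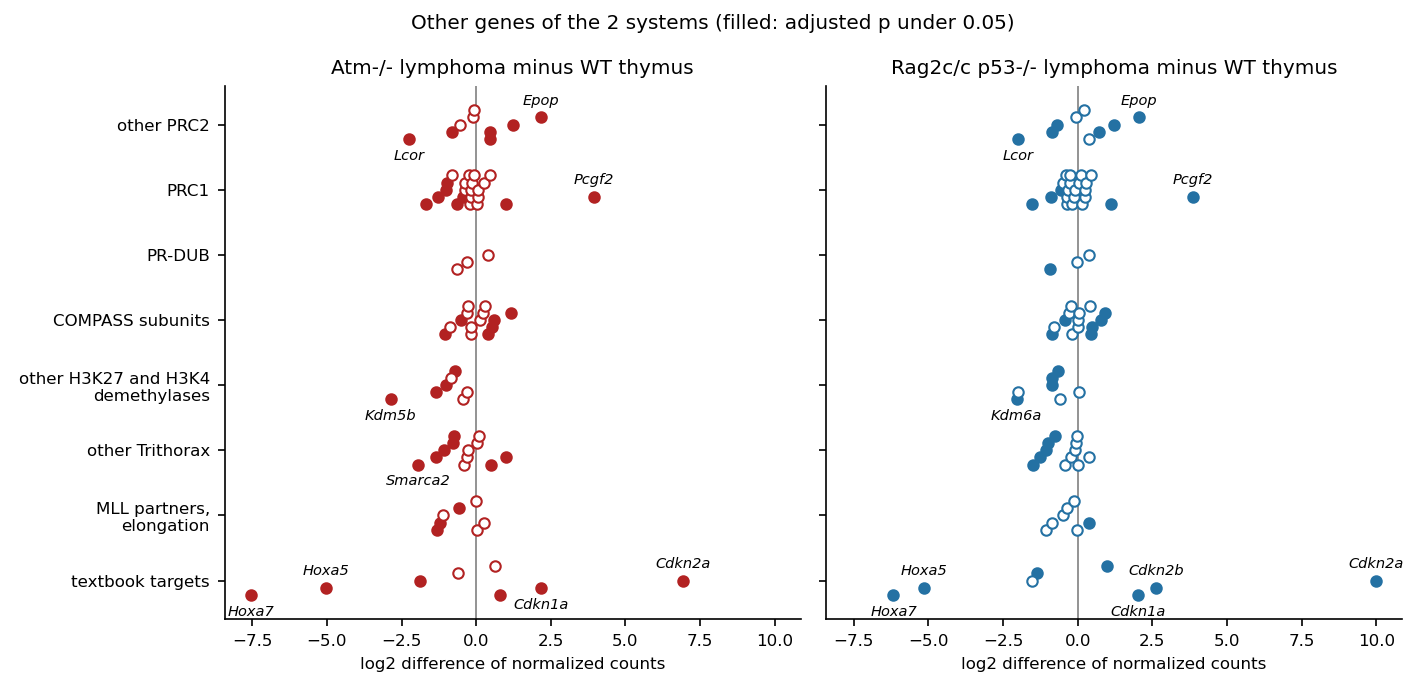
Log2 difference from WT thymus (x axis) of each tested gene of the 8 lists (y axis) in Atm-/- lymphomas (left) and Rag2c/c p53-/- lymphomas (right); filled points passed at an adjusted p under 0.05, and genes beyond 1.9 either way that passed are named. Pcgf2 stands alone at 3.95 and 3.87 among the PRC1 genes, and the demethylase genes that passed lie on the lower side.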

How the data were processed

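The deposited table holds gene counts that the authors normalized with DESeq2 (1.6.3) size factors and rounded to whole numbers, a score in units of normalized counts, for 13 libraries. Per the labels and the study's methods, reads were demultiplexed with bcl2fastq (1.8.3), mapped with STAR (2.4.0g1) to GRCm38, stripped of duplicates with Picard, kept where unique (mapping quality 255) and counted with HTSeq-count on Ensembl release 78. These methods were written for other lymphomas and the thymuses and were taken to hold here, and the strand setting is not given in the sources used here. The authors' columns of group means, dispersions, fold changes and p-values were not used. Rounding prevented recovery of whole reads, so that no count model was fitted.

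Values were analysed as log2(value + 1) with limma (3.58.1, R 4.3.3; trend, robust) over genes of at least 10 in at least 3 libraries, with the 3 groups in one fit, and p-values were adjusted over all tested genes. Exon lengths came from the GENCODE annotation given with the reference and were known for 99.3% of tested genes. Depth was estimated from the steps between low values, so that counting error is only approximately known. The code was tested on simulated data.

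The members and lists were chosen with earlier results of these data known. Named are all 10 members, up to 3 passing genes of largest absolute log2 difference per list and lymphoma comparison, the genes altered in the mice, the most abundant gene of each marker list and the 3 genes nearest to Ezh2, Kmt2a and Kdm6b. Other genes behind counts of 5 or fewer were named after their values were seen. Alternatives covered the pseudocount, filter, scaling, moderation, library weights, groups fitted, threshold and each library left out, and 2 were added after the values were seen.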

Additional observations from a re-analysis of the deposited data

Results flagged for a closer look

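In 2 of the 20 sets of one member in one lymphoma group, 1 library stood further from the other 4 than Dixon's 95% limit of 0.71 allows, and chance alone gives such a result in about 1 set in 20. Ezh1 was at 494 in Rag2c/c p53-/- lymphoma 4, while the others of that group ranged from 950 to 1236 (ratio 0.713). Suz12 was at 2439 in Atm-/- lymphoma 2, while the others ranged from 4963 to 5918 (ratio 0.801).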

How the results depend on the processing

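No paired analysis was possible because the lymphomas carry individual numbers and share no replicate number with the thymuses. Of 720 values of single members under an alternative, 683 kept their direction and their side of the threshold. With the exon length trend removed, 1 member rose and 2 fell in Atm-/- lymphomas, while 2 fell in Rag2c/c p53-/- lymphomas. With library weights, 2 members rose in Atm-/- lymphomas, Ezh2 (log2 difference 0.53, limma adjusted p = 0.000322) and Eed (0.24, adjusted p = 0.0289), and 7 fell, with Men1 added (-0.26, adjusted p = 0.0223), and 1 rose in Rag2c/c p53-/- lymphomas, Ezh2 (0.31, adjusted p = 0.0267). More of all genes passed under this setting as well. Of 15872 tested genes, those that rose and fell numbered 5285 and 5840 in Atm-/- lymphomas (3333 and 3745 as reported). In Rag2c/c p53-/- lymphomas they numbered 4560 and 5063 (2785 and 3131). Likewise 1 member rose in Atm-/- lymphomas with only the 2 groups compared and without libraries under 10 M reads. With only the 2 groups compared, 468 genes were higher and 587 lower in Atm-/- than in Rag2c/c p53-/- lymphomas (815 and 1029). With the threshold of the study, 1 member fell in Atm-/- lymphomas, where 1992 genes rose and 2695 fell, and 3 members fell in Rag2c/c p53-/- lymphomas, where 1551 genes rose and 2199 fell.

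Leaving out 1 library at a time left 15487 to 15812 tested genes. It gave 0 to 1 members higher and 2 to 6 lower in Atm-/- lymphomas (2 without thymus 3), with 2308 to 3700 genes higher and 2311 to 4110 lower. In Rag2c/c p53-/- lymphomas it gave 0 members higher and 4 to 5 lower, with 1808 to 3038 genes higher and 1683 to 3468 lower. Between the lymphoma groups it gave 0 members either way, 521 to 843 genes higher and 714 to 1118 lower in Atm-/- lymphomas. Genes lower in Atm-/- lymphomas moved by over 1.5 times without thymus 1 (2393) or 3 (2311), genes higher in Rag2c/c p53-/- lymphomas without thymus 3 (1808), genes lower there without thymus 1 (1757), 2 (2085) or 3 (1683), and genes higher in Atm-/- than in Rag2c/c p53-/- lymphomas without Atm-/- lymphoma 1 (521).

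The sign changed for 12 values, none past the threshold. Kmt2d in Atm-/- lymphomas stood at 0.103 with the length trend removed. The other 11 came from leaving out 1 library. Against thymus, Suz12 ranged from -0.271 to 0.0483 in Atm-/- lymphomas (above 0 without lymphoma 2) and from -0.0799 to 0.111 in Rag2c/c p53-/- lymphomas (below 0 without lymphoma 1, 3 or 5 or thymus 2). Between the lymphoma groups, Ezh1 ranged from -0.118 to 0.212, Men1 from -0.200 to 0.00261 and Kmt2d from -0.0307 to 0.235, with signs changed without Rag2c/c p53-/- lymphoma 4. There, Suz12 ranged from -0.289 to 0.0406 (above 0 without Atm-/- lymphoma 2) and Kmt2c from -0.337 to 0.0535 (above 0 without Atm-/- lymphoma 4 or Rag2c/c p53-/- lymphoma 1). The cause was not tested. Low depth limits the 3 libraries under 10 M reads, where 1 read was worth up to 3.38 normalized counts.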
